A study of Mus musculus with 24 samples.

Results

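The 10 genes described here are core members of the circadian clock, measured in the gastrocnemius, a calf muscle, of mice of 3 ages. They were chosen by name (Arntl, Clock, Npas2, Per1, Per2, Per3, Cry1, Nr1d1, Nr1d2 and Dbp), and each symbol was matched to 1 Ensembl gene ID. They are 10 of the 55385 genes counted in each library. All 10 passed the filter on low counts, which kept 17803 genes.

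RNA was sequenced from 24 mice, 1 library per mouse, in 6 groups of 4. The young GFP (3 to 6 months old), old GFP (21 to 24 months) and oldest-old GFP (27 to 29 months) groups were C57BL/6J females given AAV-GFP, an adeno-associated virus that carries green fluorescent protein and served as the vector control. The old Kl and oldest-old Kl groups, of the same strain, sex and ages as the GFP groups beside them, were given AAV-Kl, which carries mouse Klotho, the gene of a circulating hormone. Each vector was injected into the tail vein at 3e8 vector genomes per mouse, 14 days before the muscle was taken, and its LP1 promoter is specific to the liver, so that the muscle itself is not the tissue the transgene was built for. The young sham group is labelled only as young and sham, and its sex, age in months and handling are not given in the sources used here. Nor is the time of day at which any muscle was collected, although the mice were kept in a cycle of light and dark. On genes, the smallest library had 36415886 reads and the largest 59733985, and the clock gene with the fewest reads, Npas2, had 24 to 195 of them.

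In mammals the clock is a loop of transcription and repression that runs in nearly every cell and takes about a day. BMAL1, the protein of Arntl, pairs with CLOCK or NPAS2 and activates genes that carry E-boxes in their promoters, among them the Per, Cry and Nr1d genes and Dbp, after which PER and CRY proteins repress that activity and the REV-ERB proteins of Nr1d1 and Nr1d2 repress Arntl. In skeletal muscle the clock drives daily rhythms of genes for fuel use and contraction, and across the day Arntl and genes such as Dbp and Nr1d1 peak at nearly opposite times, so that the ratio between such genes in a tissue taken once depends on the hour of collection.

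The labelled tissue was checked first, because RNA of other tissues lay in some libraries. All 8 markers of fast muscle fibers had reads in each library and summed to between 128303 and 186669 CPM (reads of a gene relative to the TMM-scaled size of its library). Markers of hepatocytes, 10 genes led by Alb, summed to 925 CPM in old GFP mouse 1, 146 in old Kl mouse 4 and 97.3 in old GFP mouse 4, and to between 0.1503 and 24.6 in the others. Markers of keratinocytes, the cells of the epidermis, are a further 10 genes that summed to 410.5 CPM in young GFP mouse 3, 153 in young sham mouse 4, 131 in young GFP mouse 1 and 77.0 in old Kl mouse 2, and to between 2.37 and 28.3 in the others. These 7 libraries, past a sum of 50 CPM on either list, were left out together in an alternative chosen after seeing the data. Clock genes are transcribed in nearly all cell types, and in bulk muscle fewer cells of a type and less RNA per cell cannot be told apart.

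Levels differed widely between the clock genes. Per kilobase of exon, Nr1d1 was the highest, with a mean over the 24 libraries of 49.5 CPM per kb, ahead of Nr1d2 at 24.3, Per1 at 17.5 and Dbp at 13.9 CPM per kb. Cry1 followed at 4.22, Clock at 3.17, Arntl at 3.14, Per3 at 2.62 and Per2 at 2.21 CPM per kb, and Npas2 was the lowest at 0.386. In this muscle Clock thus had about the same level per length as Arntl, its partner, while Npas2, the other partner, was far below both. Counts on Nr1d1 and Dbp leave out some of their own exons, because 263 exon bases (8.55%) of Nr1d1 are shared with Thra and 539 (18.01%) of Dbp with Sphk2, both on the opposite strand, and reads without strand that fall there were counted for neither gene.

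Arntl (ENSMUSG00000055116.8, chromosome 7, 113207465 to 113314126, plus strand) encodes BMAL1, the activator on which the loop depends. In CPM, for mice 1 to 4 of each group in that order, Arntl was 20.9, 23.2, 24.7 and 28.7 in young sham, 25.98, 18.2, 21.96 and 16.2 in young GFP and 35.2, 31.9, 24.4 and 15.5 in old GFP mice. It was 12.7, 22.9, 17.3 and 35.7 in old Kl, 20.99, 29.1, 23.5 and 19.9 in oldest-old GFP and 27.8, 22.8, 25.6 and 21.4 in oldest-old Kl mice. The highest and the lowest of the 24 values, old Kl mice 4 and 1, belonged to the same group, and the groups overlapped in every comparison made. Ordered by their means, Arntl levels were 26.7 ± 8.76 in old GFP, 24.4 ± 2.87 in oldest-old Kl, 24.4 ± 3.25 in young sham, 23.4 ± 4.11 in oldest-old GFP, 22.2 ± 9.96 in old Kl and 20.6 ± 4.33 in young GFP mice (mean ± SD, n = 4), and no step in that order exceeded the SD of the groups beside it. Across the 6 groups the edgeR test for any difference gave Arntl a p of 0.752 and an adjusted p of 0.816.

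Clock (ENSMUSG00000029238.11, chromosome 5, 76209868 to 76304792, minus strand), which encodes the main partner of BMAL1, was the steadiest of the 10 genes within groups, with a pooled SD of 0.13 on the log2 scale. It ranged from 34.8 to 50.6 CPM over the 24 libraries, with group means from 40.8 ± 1.29 in oldest-old Kl to 46.9 ± 2.64 CPM in old GFP mice. Npas2 (ENSMUSG00000026077.15, chromosome 1, 39193731 to 39363236, plus strand), which encodes a partner that can take the place of CLOCK, was the least steady. It had 1.503, 3.21, 2.39 and 2.46 CPM in young sham, 1.76, 1.25, 0.932 and 0.894 in young GFP and 3.35, 2.31, 1.13 and 1.03 in old GFP mice. Old Kl mice had 0.5596, 1.87, 0.878 and 3.14 CPM of Npas2, oldest-old GFP mice 1.99, 1.95, 1.94 and 1.62 and oldest-old Kl mice 1.97, 2.36, 2.28 and 1.65. Npas2 was thus high in the same old GFP and old Kl mice as Arntl (old GFP mice 1 and 2, old Kl mouse 4) and low in the mice where Arntl was low (old GFP mouse 4, old Kl mice 1 and 3). The range within old Kl mice was 5.61-fold, while in oldest-old GFP mice it was 1.23-fold. Group means of Npas2 fell in the order 2.39 ± 0.7001 in young sham, 2.07 ± 0.326 in oldest-old Kl, 1.96 ± 1.098 in old GFP, 1.88 ± 0.171 in oldest-old GFP, 1.61 ± 1.16 in old Kl and 1.21 ± 0.399 in young GFP mice, and each step was within the SD of at least 1 of the 2 groups beside it.

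**Figure D1:**
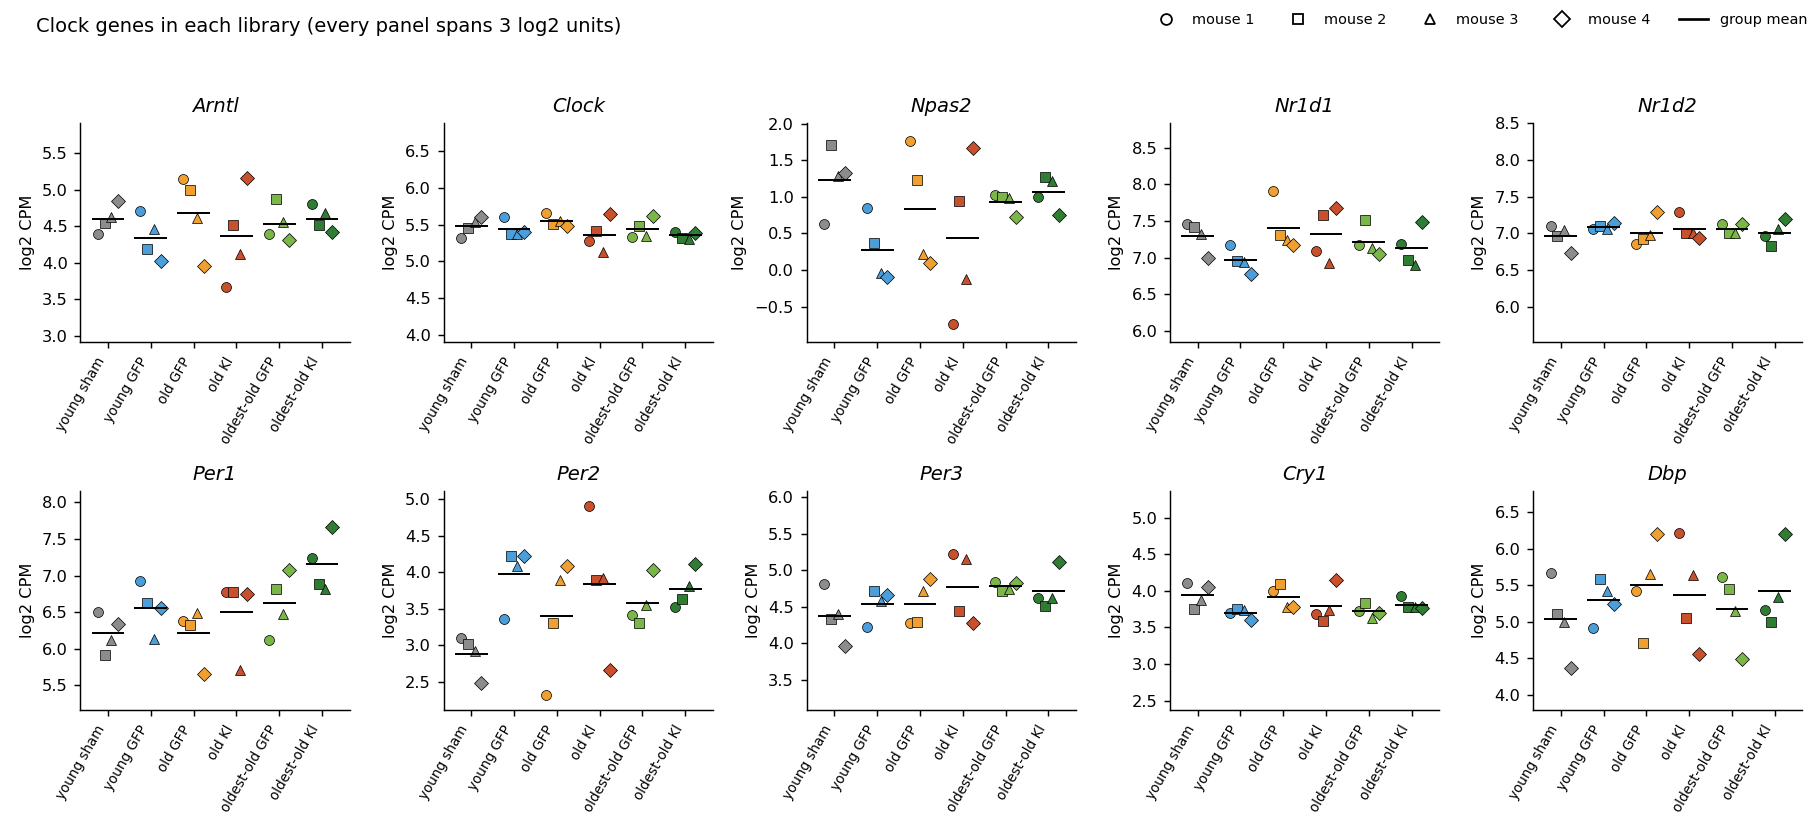
Each panel shows 1 clock gene, with log2 CPM on the vertical axis (3 log2 units in every panel) and the 6 groups along the horizontal axis; symbols are mice 1 to 4 of a group and bars are group means. Arntl, Npas2, Per2 and Dbp are spread most in old GFP and old Kl mice, Clock, Cry1 and Nr1d2 are tight in every group, and Per1 is highest in oldest-old Kl mice.

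Per1, Per2 and Per3 encode the PERIOD proteins and Cry1 a cryptochrome, which together hold back BMAL1 and its partners. RefSeq promoters were at hand for 9 of the 10 genes (build GRCm38.p6), but not for Per2, and the 250 bases before each start were searched on both strands for 5 motifs. The motifs were the E-box (CACGTG), the E′-box (CACGTT, which differs from it in the last letter only), the D-box bound by DBP and its relatives (TTATGTAA or TTACGTAA), AGGTCA, the core of the site that ROR and REV-ERB receptors bind, and TGACG, the core of the cAMP response element. Per3 is shown because its level followed that of Dbp from library to library, Cry1 because it followed Arntl, and Per1 because it followed neither. Capitals mark the motif matches, and each line runs 5′ to 3′ up to the last base before the start.
Per3: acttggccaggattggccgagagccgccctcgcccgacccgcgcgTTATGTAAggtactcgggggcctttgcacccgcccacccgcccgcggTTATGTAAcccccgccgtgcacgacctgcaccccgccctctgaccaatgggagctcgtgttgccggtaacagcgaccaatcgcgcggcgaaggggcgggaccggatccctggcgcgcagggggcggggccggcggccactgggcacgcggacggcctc
Cry1: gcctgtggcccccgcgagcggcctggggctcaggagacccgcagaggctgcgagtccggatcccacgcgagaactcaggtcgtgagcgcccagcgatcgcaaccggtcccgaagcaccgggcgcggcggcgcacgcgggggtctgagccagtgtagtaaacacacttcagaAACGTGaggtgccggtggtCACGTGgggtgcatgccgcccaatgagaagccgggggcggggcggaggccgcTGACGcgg
Per1: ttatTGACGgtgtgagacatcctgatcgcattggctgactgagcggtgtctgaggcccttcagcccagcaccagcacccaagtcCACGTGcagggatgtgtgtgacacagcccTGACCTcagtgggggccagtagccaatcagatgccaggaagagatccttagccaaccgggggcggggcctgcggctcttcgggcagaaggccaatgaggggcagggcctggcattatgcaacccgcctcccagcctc
The Per3 window (chr4:151044666-151044915, minus strand) holds 2 D-boxes, TTATGTAA, that begin 205 and 158 bases before the start, and 0.931% of 32851 windows of the same length from all genes hold a D-box. Cry1 (chr10:85185055-85185304, minus strand) holds AACGTG, an E′-box read on the other strand, 79 bases before the start, CACGTG 60 bases before it and TGACG 8 bases before it. Per1 (chr11:69098699-69098948, plus strand) holds TGACG 246, CACGTG 166 and TGACCT, the receptor core read on the other strand, 137 bases before the start. Of all windows, 6.02% hold the E-box, 3.85% the E′-box, 14.02% the receptor core and 17.8% TGACG. The 9 clock genes have 13 windows, as Arntl and Per1 have 2 starts and Clock 3, and counted by gene over any window, 2 had an E-box (Cry1 and Per1), 2 an E′-box (Cry1 and Nr1d1), 1 a D-box (Per3), 3 the receptor core (Clock, Per1 and Nr1d2) and 2 TGACG, beside 6.86%, 4.50%, 1.095%, 15.8% and 19.8% of all 27025 genes, and no match lay in the windows of Arntl, Npas2 or Dbp.

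Per1 (ENSMUSG00000020893.17, chromosome 11, 69095217 to 69109960, plus strand), the PERIOD gene that also answers to outside signals such as cAMP and glucocorticoids, differed most between groups relative to its spread. Its level was 90.4, 60.2, 69.5 and 80.98 CPM in young sham, 121, 98.9, 69.95 and 94.2 in young GFP and 83.03, 79.97, 90.2 and 50.2 in old GFP mice. It was 109.9, 109.7, 52.4 and 108 CPM in old Kl, 69.5, 112, 88.7 and 135 in oldest-old GFP and 151, 118, 113 and 204 in oldest-old Kl mice. The oldest-old Kl mice were high, and mouse 4 of that group was the highest of all, but oldest-old GFP mouse 4 lay among them, so those 2 groups overlapped. By mean, Per1 fell from 147 ± 41.6 in oldest-old Kl, 101 ± 28.4 in oldest-old GFP, 96.1 ± 21.1 in young GFP, 94.98 ± 28.4 in old Kl, 75.9 ± 17.6 in old GFP and 75.3 ± 13.2 in young sham mice, and the step from oldest-old Kl to oldest-old GFP alone exceeded the SD of both groups beside it. Between-group differences held 46.3% of the variance of Per1 in log2 CPM, against a median of 35.1% over 12826 genes with a mean of at least 1 CPM. The test for any difference among groups gave Per1 an edgeR p of 0.0095 and an adjusted p of 0.0574, which missed the threshold of 0.05, while DESeq2's likelihood ratio test gave an adjusted p of 0.00855. Leaving out old Kl mouse 3, oldest-old GFP mouse 1 or oldest-old GFP mouse 4 brought Per1 past the edgeR threshold. In oldest-old Kl against oldest-old GFP mice its log2 fold change was 0.53 (SE 0.25, 95% interval 0.01 to 1.06, edgeR unadjusted p 0.0476, adjusted p 0.613), and the two-sided exact permutation test of the 4 mice against 4 gave a p of 0.114. Without oldest-old Kl mouse 4 that log2 fold change was 0.33.

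Per2 (ENSMUSG00000055866.9, chromosome 1, 91415982 to 91459324, minus strand), a PERIOD gene that acts as a repressor at the center of the loop, had 8.57, 8.09, 7.54 and 5.58 CPM in young sham, 10.2, 18.5, 16.9 and 18.6 in young GFP and 4.95, 9.84, 14.8 and 16.9 in old GFP mice. The level of Per2 was 30.01, 14.8, 15.03 and 6.28 CPM in old Kl, 10.7, 9.82, 11.7 and 16.3 in oldest-old GFP and 11.5, 12.4, 13.99 and 17.3 in oldest-old Kl mice. All 4 young sham mice were below all 4 young GFP mice, and old GFP mouse 1 and old Kl mouse 4, the mice with the most Arntl, had Per2 as low as the sham mice. Means of Per2 ran from 16.5 ± 9.86 in old Kl, 16.1 ± 3.98 in young GFP, 13.8 ± 2.55 in oldest-old Kl, 12.1 ± 2.88 in oldest-old GFP, 11.6 ± 5.35 in old GFP and 7.44 ± 1.31 in young sham mice, and each step was within the SD of at least 1 of the 2 groups beside it. In young GFP against young sham mice the log2 fold change of Per2 was 1.11 (SE 0.36, 95% interval 0.36 to 1.87), a 2.16-fold difference with an edgeR unadjusted p of 0.00591, an adjusted p of 0.191 and an exact permutation p of 0.0286, the smallest that 4 mice against 4 allow. Its log2 fold change was -0.47 (SE 0.36, 95% interval -1.22 to 0.27) in old GFP against young GFP mice, which share the young GFP libraries with the comparison above. Old GFP mouse 1, the lowest of its group at 4.95 CPM, weighed on that value. In old Kl against old GFP mice the log2 fold change of Per2 was 0.51 (SE 0.36, 95% interval -0.23 to 1.26), with the 2 groups widely overlapping. When the fit held the libraries of the young GFP and young sham groups alone, Per2 passed the adjusted threshold between them.

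Per3 (ENSMUSG00000028957.12, chromosome 4, 151003652 to 151044665, minus strand), a PERIOD gene the loop can run without, ranged from 15.5 CPM in young sham mouse 4 to 37.1 in old Kl mouse 1. Its values were 18.7, 26.2, 23.9 and 25.2 CPM in young GFP and 28.6, 26.4, 26.7 and 28.3 in oldest-old GFP mice. The oldest-old GFP mice were close together and all above the young GFP mice, by little: the log2 fold change of Per3 was 0.23 (SE 0.21, 95% interval -0.20 to 0.65, edgeR unadjusted p 0.282), and the exact permutation p was 0.0286. Cry1 (ENSMUSG00000020038.10, chromosome 10, 85131700 to 85185064, minus strand), the cryptochrome gene whose product is a strong repressor of BMAL1, kept within 12.04 and 17.6 CPM. It was 17.2, 13.5, 14.6 and 16.6 CPM in young sham, 12.9, 13.4, 13.3 and 12.1 in young GFP and 15.9, 16.96, 13.7 and 13.7 in old GFP mice. All young GFP mice lay below all young sham mice and below all old GFP mice in Cry1, since the young GFP group was tight and low. The log2 fold change of Cry1 was -0.26 (SE 0.10, edgeR unadjusted p 0.0183, adjusted p 0.274) in young GFP against young sham mice. It was 0.22 (SE 0.10, edgeR unadjusted p 0.0393, adjusted p 0.231) in old GFP against young GFP mice, and the exact permutation p was 0.0286 in both, which share the young GFP mice. The group means of Cry1 lay between 12.9 ± 0.567 CPM in young GFP and 15.5 ± 1.71 in young sham mice, and those of Per3 between 21.3 ± 5.23 in young sham and 28.4 ± 9.18 in old Kl mice.

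Nr1d1 (ENSMUSG00000020889.11, chromosome 11, 98767932 to 98775333, minus strand) and Nr1d2 (ENSMUSG00000021775.11, chromosome 14, 18204054 to 18239127, minus strand) encode REV-ERB alpha and beta, the nuclear receptors that repress Arntl. Nr1d1 was 145, 124, 123 and 109.7 CPM in young GFP, 239.9, 158, 151 and 144 in old GFP and 144, 183, 140.5 and 132 in oldest-old GFP mice. In young sham mice it was 177, 171, 159.5 and 128 CPM, in old Kl mice 136, 192, 121 and 205 and in oldest-old Kl mice 145, 125, 119 and 179. Old GFP mouse 1, the mouse with the most hepatocyte RNA, was far above the other old GFP mice, whose lowest value was just under the highest of the young GFP mice. In old GFP against young GFP mice the log2 fold change of Nr1d1 was 0.47 (SE 0.18, 95% interval 0.09 to 0.85, edgeR unadjusted p 0.0173, adjusted p 0.148, exact permutation p 0.0571). Without old GFP mouse 1 it was 0.25, with an unadjusted p of 0.1597. Nr1d2 kept within 106 and 157 CPM, and its group means, from 125 ± 13.6 in young sham to 136 ± 3.76 in young GFP mice, differed by less than the SD of the young sham group.

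Dbp (ENSMUSG00000059824.12, chromosome 7, 45705088 to 45710203, plus strand) encodes a transcription factor through which the clock acts on its output genes at D-boxes. Its level was 50.8, 34.3, 31.9 and 20.6 CPM in young sham, 30.2, 48.1, 42.9 and 37.9 in young GFP and 42.9, 26.2, 50.1 and 73.7 in old GFP mice. In old Kl mice Dbp was 74.4, 33.2, 49.6 and 23.6 CPM, in oldest-old GFP mice 48.9, 43.6, 35.3 and 22.5 and in oldest-old Kl mice 35.7, 31.9, 40.3 and 73.2. The groups overlapped in every comparison of Dbp, with old Kl mouse 1, old GFP mouse 4 and oldest-old Kl mouse 4 the highest mice and young sham mouse 4, oldest-old GFP mouse 4 and old Kl mouse 4 the lowest. Group means of Dbp fell from 48.2 ± 19.7 in old GFP, 45.3 ± 18.9 in oldest-old Kl, 45.2 ± 22.2 in old Kl, 39.8 ± 7.64 in young GFP, 37.6 ± 11.5 in oldest-old GFP and 34.4 ± 12.5 in young sham mice, each step smaller than the SD of the groups beside it. Differences between groups held 9.73% of its variance, a lower share than in most of the 12826 genes, of which 2.99% had a lower share. The edgeR p of Dbp for any difference among the groups was 0.745 (adjusted p 0.811).

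Within groups, 7 of the 10 clock genes had a wider spread than the median gene and 3 a narrower spread, which was not tested over the set. The pooled SD within groups, in log2 CPM, was 0.61 for Npas2, 0.56 for Per2, 0.55 for Dbp, 0.39 for Per1 and Arntl, 0.31 for Per3 and 0.27 for Nr1d1, against a median of 0.16 over the 12826 genes. That of Npas2 was higher than in 95.3% of those genes, that of Per2 than in 94.4%, that of Dbp than in 94.0% and that of Arntl than in 87.5%. Cry1 and Nr1d2, at 0.14, and Clock, at 0.13, were below the median. The spread was not the same in each group: the median SD over the 10 clock genes was 0.50 in old Kl and 0.36 in old GFP mice, 0.25 in young GFP, 0.24 in oldest-old Kl and 0.23 in young sham mice, and 0.17 in oldest-old GFP mice. Over all genes the medians were 0.15 in old Kl, 0.11 in old GFP, 0.12 in young GFP, 0.16 in oldest-old Kl, 0.12 in young sham and 0.18 in oldest-old GFP mice. The oldest-old GFP mice, with the widest spread over all genes, thus had the narrowest spread in the clock genes, and there Dbp varied most, with an SD of 0.49. Mouse 4 of that group stood apart over all genes, with a chi-square per gene of 137 to 154 against the others. Those had 14.8 to 41.04 among themselves, and the part of mouse 4 in the spread over all genes was not tested. Whether the spread of clock genes differs between groups was not tested.

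Each comparison between groups was read against all 17803 genes tested, with a call meaning an edgeR p adjusted over all of them under 0.05. Old against young GFP mice asks what changes with age, and there edgeR called 0 of the 10 clock genes, beside 837 of all genes (4.70%), and DESeq2 called 0. At an unadjusted p under 0.05 edgeR had 2 of the 10, Cry1 and Nr1d1, against 19.1% of all genes, and DESeq2 had Nr1d1 alone. The mice of both groups did not overlap for 1 clock gene, Cry1, and for 15.6% of all genes. These shares of the clock genes are near those of all genes. The median log2 fold change was 0.17 over the 10 and 0.00 over all genes.

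Oldest-old against young GFP mice, the widest step in age, gave 0 of 10 clock genes called by edgeR beside 14.9% of all genes, and 0 by DESeq2. At an unadjusted p under 0.05 both tools had 0 of the 10, while edgeR had 29.8% of all genes. The groups did not overlap for 1 clock gene, Per3, and for 18.4% of all genes. The median log2 fold change was 0.05 over the 10 and 0.03 over all genes, and whether the shares differ was not tested. For Arntl the 95% interval of the log2 fold change ran from -0.35 to 0.71, a wide range, while the intervals of Clock, -0.18 to 0.20, and Nr1d2, -0.23 to 0.18, were narrow around 0. Both comparisons with young GFP mice share those 4 libraries. Between oldest-old and old GFP mice, edgeR and DESeq2 called 0 of the 10 (edgeR called 0.00562% of all genes), and 0 of the 10 had an unadjusted p under 0.05 by either tool, against 11.998% of all genes by edgeR. No clock gene separated those groups, against 5.65% of all genes, and the median log2 fold change was -0.09 over the 10 and 0.02 over all genes.

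The comparisons of Kl with GFP mice ask what the Klotho vector changes in muscle. In old mice, edgeR and DESeq2 called 0 of the 10 clock genes, and 0 had an unadjusted p under 0.05 by either tool; of all genes edgeR called 0.00%, had 2.15% at the unadjusted threshold, and 1.68% did not overlap, where the clock genes had 0. The median log2 fold change of the 10 was -0.09, against 0.01. Old Kl mouse 4, whose Arntl, Npas2 and Cry1 were high and whose Per2 was low, weighed on this comparison: without it 5 clock genes had an unadjusted p under 0.05, beside 3.72% of all genes in that fit, with log2 fold changes of -0.60 for Arntl, -0.28 for Clock, -0.83 for Npas2, 0.78 for Per2 and -0.25 for Cry1, and still 0 passed the adjusted threshold. Leaving out old Kl mouse 1 or old GFP mouse 1 moved the values the other way: the log2 fold change of Arntl was -0.08 and -0.11 and that of Per2 0.06 and 0.26, with 0 clock genes at an unadjusted p under 0.05, so the difference turns on which mouse is kept. Without the 7 libraries of high hepatocyte or keratinocyte markers, this mouse among them, 2 old Kl mice were compared with 2 old GFP mice, and the log2 fold change of Arntl was -0.90 and that of Npas2 was further below 0, again with 0 of the 10 past the adjusted threshold. In oldest-old mice, edgeR and DESeq2 called 0 of the 10, beside 0.0112% of all genes by edgeR, and each had 1 at an unadjusted p under 0.05, Per1, where edgeR had 8.08% of all genes. No clock gene separated those groups, as did 2.65% of all genes, and the median log2 fold change was 0.08 over the 10 and 0.01 over all genes. The difference between the responses of oldest-old and old mice was tested as an interaction: edgeR and DESeq2 called 0 of the 10 (0.00562% of all genes by edgeR), and 0 had an unadjusted p under 0.05 by either tool, against 5.76% of all genes by edgeR.

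Young GFP against young sham mice differ by the vector and by whatever else set the sham group apart, which the labels do not tell. edgeR called 0 of the 10 clock genes, beside 0.472% of all genes, and DESeq2 called 0. At an unadjusted p under 0.05 both tools had 3 of the 10, Per2 higher and Npas2 and Cry1 lower in young GFP mice, against 13.4% of all genes by edgeR. For 2 of the 10, Per2 and Cry1, the groups did not overlap, against 9.76% of all genes. Npas2 had a log2 fold change of -0.99 (SE 0.42, edgeR unadjusted p 0.0275, adjusted p 0.313) and an exact permutation p of 0.0571. The median log2 fold change over the 10 was 0.04, against -0.03 over all genes, because the genes moved in opposite directions. Over the 6 groups at once, edgeR called 0 of the 10 for any difference, beside 15.3% of all genes, with 1 of the 10 (Per1) at an unadjusted p under 0.05 against 31.3% of all genes, and DESeq2 called 1, Per1, with Per2 as a further gene at the unadjusted threshold. Without the 7 libraries of high hepatocyte or keratinocyte markers edgeR called 1 gene for any difference, Per2, as it did without old Kl mouse 4.

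**Figure D2:**
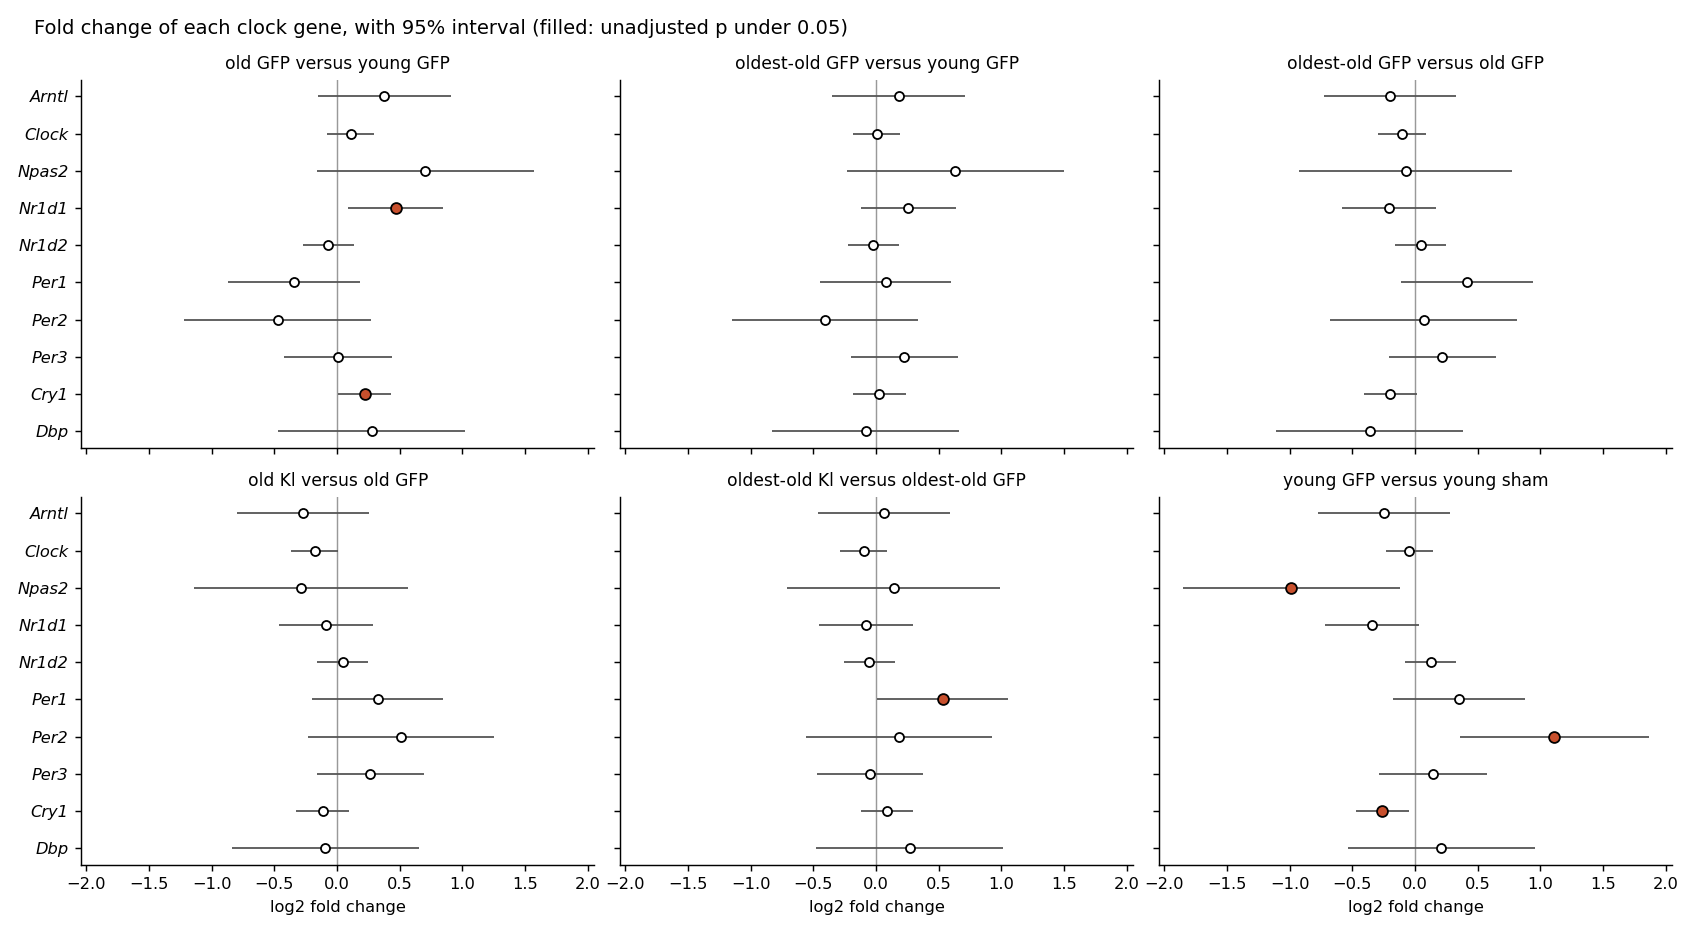
Log2 fold changes of the 10 clock genes in 6 comparisons, with points for the edgeR estimates and lines for their 95% intervals; filled points have an unadjusted p under 0.05. Per2 stands at 1.11 and Npas2 at -0.99 in young GFP against young sham mice, and the intervals of Clock, Cry1 and Nr1d2 are the narrowest in each panel.

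From library to library the clock genes moved together. Over the 45 pairs of the 10 genes and the 24 libraries, Pearson's r of log2 CPM had a permutation p, adjusted over the 45, under 0.05 in 30 pairs, of which 15 were positive and 15 negative. The same held in 21 pairs, 11 positive and 10 negative, for deviations from the group means, with values permuted within groups, and 20 pairs passed both with the same sign. No batch is given in the labels, so none could be removed, and values within groups do not take out a batch that splits groups. The smallest p that 100000 permutations can give is 1e-05.

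Arntl and Npas2, the activator and a partner of its protein, rose and fell together (r 0.83, permutation p 1e-05, adjusted p 0.000112; rho 0.77, permutation p 5e-05). Their r was 0.74 without old Kl mice 1 and 4, the libraries farthest from the median of Arntl, and 0.85 within groups. Per2 ran against Arntl, with an r of -0.81 (permutation p 1e-05, adjusted p 0.000112) and a rho of -0.78 (permutation p 3e-05). That r was -0.72 without the same 2 mice and -0.89 within groups, the strongest of the 45 within groups. Per3 did so as well (r -0.73, permutation p 8e-05, adjusted p 0.0004, rho -0.75, permutation p 6e-05, r -0.64 without those 2 mice and -0.83 within groups). Nr1d2, the gene of a repressor of Arntl, was low where Arntl was high (r -0.76, permutation p 2e-05, adjusted p 0.00018, rho -0.76, permutation p 2e-05, r -0.70 without those 2 mice and -0.75 within groups). Dbp had an r of -0.60 with Arntl (permutation p 0.00186, adjusted p 0.00505, rho -0.56, permutation p 0.00498, r -0.68 within groups), and this relation rests in part on old Kl mice 1 and 4, without which r was -0.44 and the adjusted p 0.0711.

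**Figure D3:**
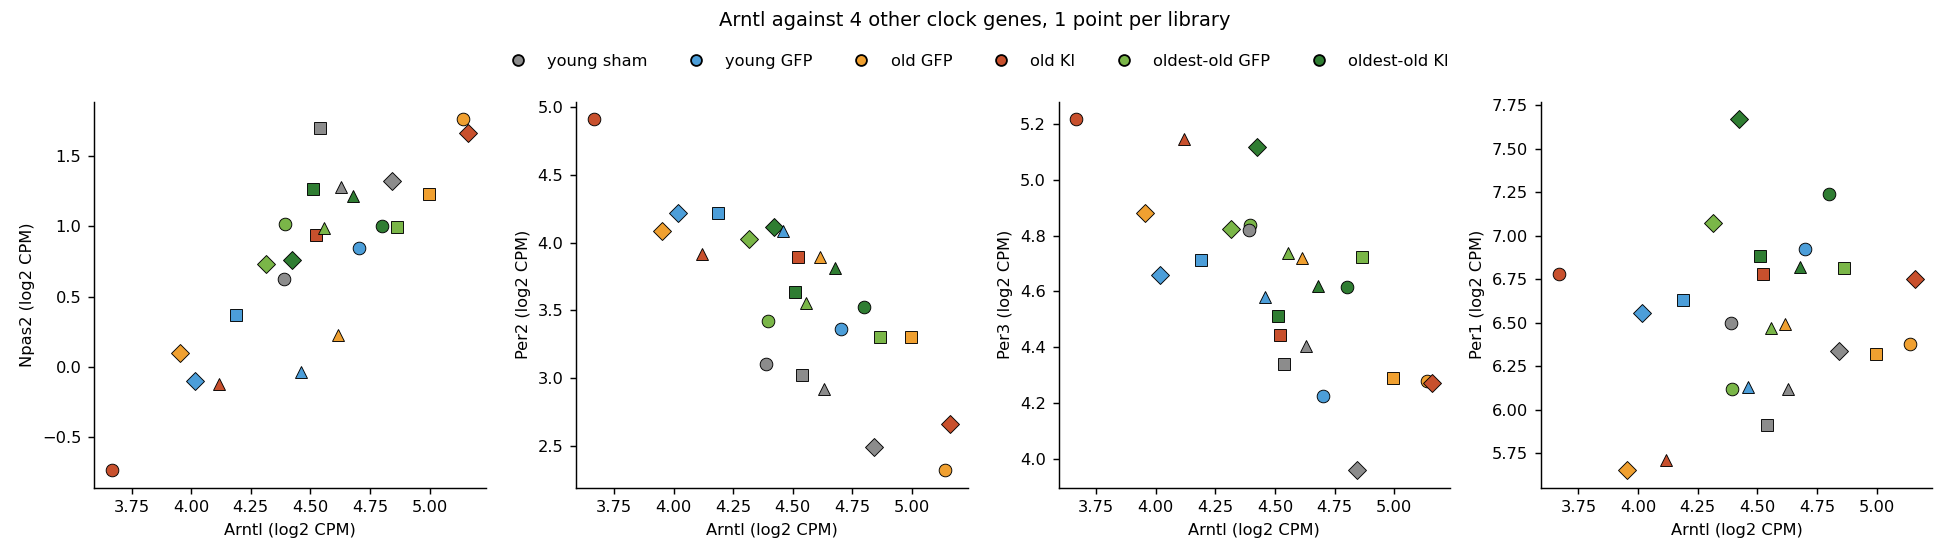
Log2 CPM of Npas2, Per2, Per3 and Per1 against log2 CPM of Arntl, 1 point per library, with color for the group and symbol shape for mouse 1 to 4. Npas2 rises with Arntl (r 0.83), Per2 (r -0.81) and Per3 (r -0.73) fall, and Per1 shows no trend (r 0.17). All 4 young sham mice lie below the trend of the other mice in the panel of Per2.

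The opposite limb held together too. Per3 and Dbp had an r of 0.77 (permutation p 1e-05, adjusted p 0.000112, rho 0.76, permutation p 4e-05, r 0.67 without young sham mouse 4 and old Kl mouse 1 and 0.86 within groups). Per3 is the gene whose promoter above holds a pair of D-boxes, and no binding of DBP was measured here. Nr1d2, whose window holds no D-box, went with Dbp as well (r 0.69, permutation p 0.00032, adjusted p 0.0012, rho 0.56, permutation p 0.00474, r 0.53 without young sham mouse 4 and old Kl mouse 1 and 0.74 within groups). Per2 and Per3 had an r of 0.74 (permutation p 5e-05, adjusted p 0.000321, rho 0.64, permutation p 0.00104, r 0.67 without old GFP mouse 1 and old Kl mouse 1 and 0.78 within groups). Npas2 and Per2, from opposite limbs, had an r of -0.83 (permutation p 1e-05, adjusted p 0.000112, rho -0.83, permutation p 1e-05, r -0.79 without old Kl mice 1 and 3 and -0.86 within groups). Nr1d1 and Nr1d2 did not move as a pair: Nr1d1 went with Arntl (r 0.56, permutation p 0.00445, adjusted p 0.00981, rho 0.51, permutation p 0.0126, r 0.52 without old Kl mice 1 and 4), with an r of 0.57 within groups whose adjusted p was 0.0692. Between Nr1d1 and Dbp r was 0.00 (permutation p 0.997, adjusted p 0.997, rho -0.05, permutation p 0.83, r 0.12 without old GFP mouse 1 and old Kl mouse 4 and -0.02 within groups).

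Per1 stood outside this pattern. None of its 9 pairs with the other clock genes passed over the 24 libraries (0 of 9 at an adjusted p under 0.05 by permutation), with values of r between -0.08 and 0.19, and within groups 1 passed, with Clock (r 0.61, permutation p 0.0102, adjusted p 0.027, rho 0.53, permutation p 0.0177). Over the 24 libraries, without regard to group, Per1 and Clock had an r of 0.11 (permutation p 0.62, rho 0.00, permutation p 0.989, r -0.07 without old GFP mouse 1 and old Kl mouse 3). Arntl, Npas2 and Per2 each passed in 8 of their 9 pairs over the 24 libraries. Fewer held within groups for Cry1, with 6 pairs over the 24 libraries and 1 within groups, and for Nr1d1, with 5 and 0.

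**Figure D4:**
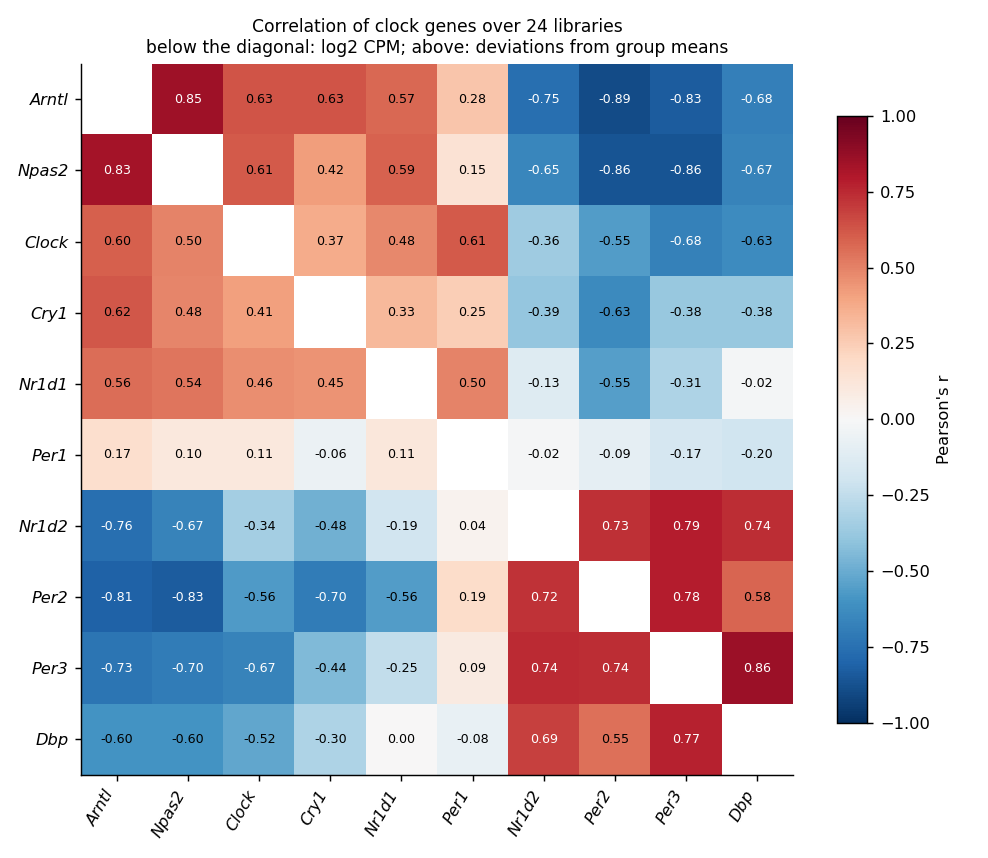
Pearson's r for the 45 pairs of clock genes over 24 libraries, in log2 CPM below the diagonal and as deviations from group means above it; red is positive and blue negative. Arntl, Npas2, Clock, Cry1 and Nr1d1 form a positive block, Nr1d2, Per2, Per3 and Dbp another, r between the blocks is negative except for Nr1d1 with Dbp (0.00) and weak for Nr1d1 with Nr1d2 and Per3, and the squares of Per1 are pale over the 24 libraries.

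How many pairs passed depended on the libraries. Without the 7 libraries of high hepatocyte or keratinocyte markers, 12 of 45 pairs passed in place of 30 and 16 passed when oldest-old GFP mouse 4 was left out as well. With fewer libraries an r must be larger to pass, and the part of this in the drop was not tested. The r of Arntl was 0.79 with Npas2, -0.73 with Per2 and -0.68 with Per3 without the 7 libraries. At an unadjusted p under 0.05, edgeR then had 1 of the 10 (Arntl) in old against young GFP mice, beside 9.98% of all genes in that fit, and 3 (Arntl 0.42, Npas2 0.78 and Per2 -0.64 log2) in oldest-old against young GFP mice, beside 19.8%, with 0 past the adjusted threshold. In that fit the old GFP group was mice 2 and 3 alone and the young GFP group mice 2 and 4 alone. Arntl, Per1 and Per2 did not follow the markers of other cells past correction, and the other 7 clock genes were not tested for this: of 36 relations of Arntl, Per1 and Per2 with 10 marker lists, the reads on genes and the share of ambiguous reads, 0 had an adjusted permutation p under 0.05, over the 24 libraries or within groups. The lowest adjusted p, 0.439, belonged to Per1 and the adipocyte markers within groups (r -0.58, permutation p 0.0122). The sum of that list was mostly Car3 in every library (5248 of 6092 CPM in young sham mouse 4, 7543 of 7592 in oldest-old Kl mouse 3). This measure thus followed Car3 and was not a measure of fat cells by the list as a whole. The part of RNA of other cells in the results on clock genes was not otherwise tested.

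Against all genes, the other clock genes were at the far ends of the correlation with Arntl. Of 12825 other genes with a mean of at least 1 CPM, ranked by r with Arntl over the 24 libraries, Per2 had the lowest r of all, Nr1d2 was at rank 3 from the bottom, Per3 at 4 and Dbp at 10. Npas2 was at rank 2 from the top, Cry1 at 24, Clock at 37 and Nr1d1 at 57, while Per1 was at 2871. As deviations from group means, Per2 was again lowest, Per3 next to it at rank 2 and Nr1d2 at 8 from the bottom, and Npas2 was at rank 3 from the top. Genes of the clock that were not among the 10 lay there too. Tef, a relative of Dbp, was at rank 2 from the bottom (r -0.76, and -0.77 within groups), Klf10 at 15 from the top (r 0.67) and Nfil3, a repressor that binds D-boxes, was at 670 from the top (r 0.35) but at rank 1 within groups (r 0.87). These ranks describe the 24 libraries and carry no test.

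**Figure D5:**
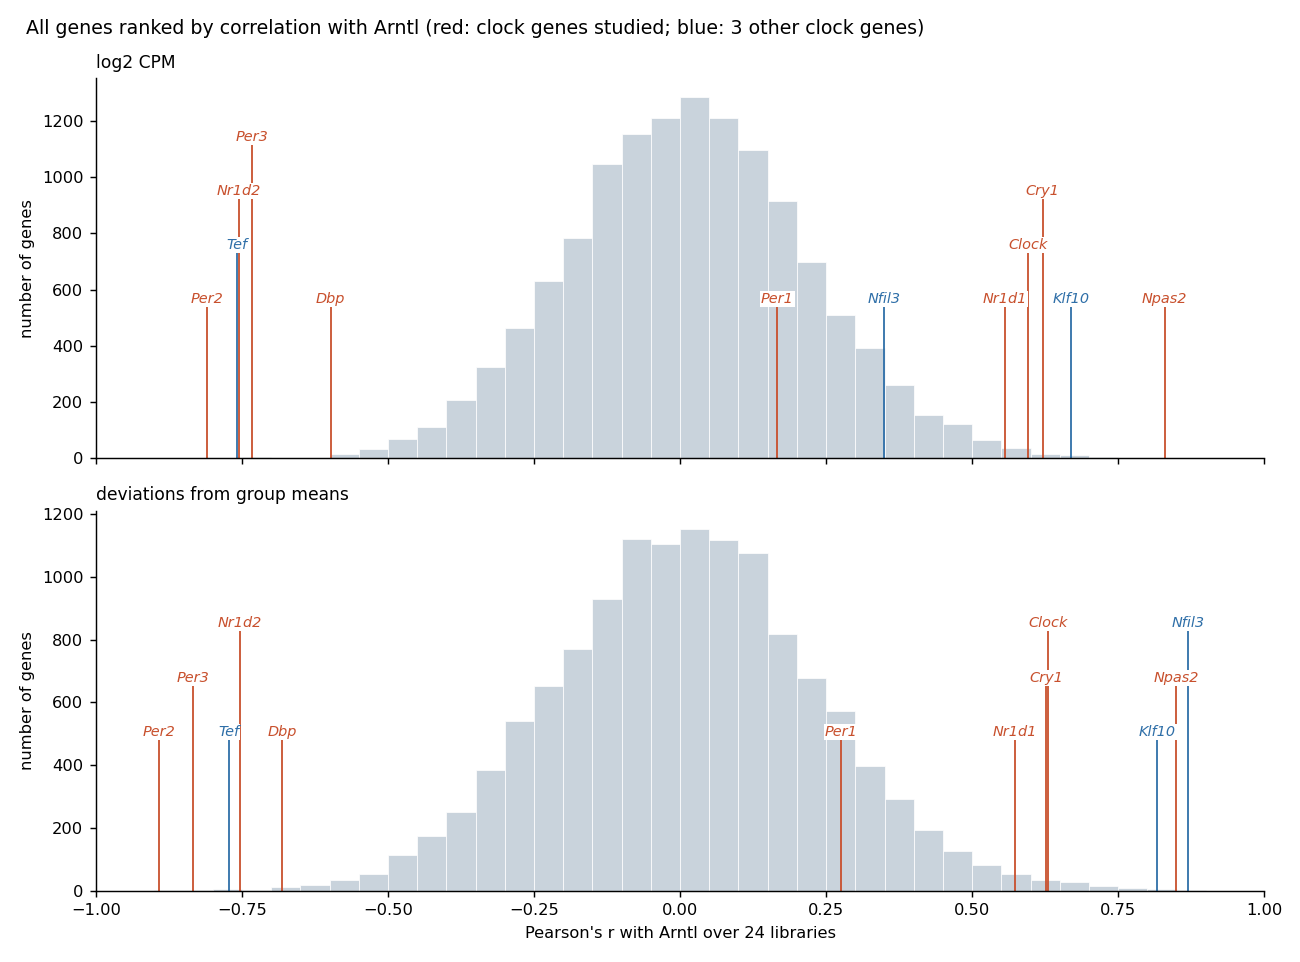
Histograms of Pearson's r with Arntl over 24 libraries for all genes with a mean of at least 1 CPM, from log2 CPM (top) and from deviations from group means (bottom), with the number of genes on the vertical axis. Lines mark the other 9 clock genes (red) and Tef, Klf10 and Nfil3 (blue), whose heights only separate the labels; most lie in the tails, and Per1 lies inside the bulk.

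Outside the clock genes described, those most like Arntl over the 24 libraries were Fam110b (r 0.85, rho 0.80), Slc25a36 (r 0.80, rho 0.79), Miga2 (r 0.74, rho 0.75), Dusp8 (r 0.74, rho 0.75) and Wsb1 (r 0.72, rho 0.70). Most opposite to Arntl were Tef (r -0.76, rho -0.73), Slc25a30 (r -0.73, rho -0.71), Srp72 (r -0.71, rho -0.66), Gins4 (r -0.70, rho -0.75) and Usp54 (r -0.61, rho -0.64). Per1 had other neighbors, with Tob2 (r 0.80, rho 0.70), Ercc1 (r 0.77, rho 0.72), Zbtb10 (r 0.71, rho 0.73), Mafk (r 0.71, rho 0.64) and Fth1 (r 0.70, rho 0.77) most like it. Its most opposite genes were Has3 (r -0.79, rho -0.75), Aplnr (r -0.75, rho -0.75), Inip (r -0.72, rho -0.68), Cdc25a (r -0.69, rho -0.49) and Klhl20 (r -0.66, rho -0.70). Nearest to Dbp were Ccdc85b (r 0.72, rho 0.78), Fbxo25 (r 0.70, rho 0.71), Inpp5a (r 0.69, rho 0.64), Esr1 (r 0.68, rho 0.58) and Rab3a (r 0.64, rho 0.60). Opposite to Dbp were Sphk2 (r -0.84, rho -0.78), Cant1 (r -0.69, rho -0.73), Efnb1 (r -0.68, rho -0.68), Rnd2 (r -0.66, rho -0.50) and Rc3h1 (r -0.65, rho -0.58), of which Sphk2 is the gene on the other strand that shares exon bases with Dbp. All were picked as extremes of 12816 genes, so their r carries no test.

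A balance of the clock was computed for each mouse as the mean log2 CPM of Arntl, Npas2 and Clock minus that of Nr1d1, Nr1d2, Per3 and Dbp. Nr1d1, set against Arntl in this balance, ran with Arntl in these libraries (r 0.56), so it does not pull the way its place in the balance assumes. The balance has no test, because the genes were chosen with results known. In mice 1 to 4 the balance was -2.82, -2.06, -2.12 and -1.59 in young sham, -2.13, -2.78, -2.74 and -2.85 in young GFP, and -1.93, -1.89, -2.69 and -3.21 in old GFP mice. It was -3.72, -2.40, -3.14 and -1.71 in old Kl, -2.61, -2.39, -2.38 and -2.32 in oldest-old GFP, and -2.24, -2.13, -2.24 and -2.98 in oldest-old Kl mice. The whole range of the 24 mice was nearly spanned by the old Kl group alone, whose mice 1 and 4 had the lowest and all but the highest balance. Means were -2.15 ± 0.51 (SD, n = 4) in young sham, -2.62 ± 0.33 in young GFP, -2.43 ± 0.64 in old GFP, -2.74 ± 0.88 in old Kl, -2.42 ± 0.13 in oldest-old GFP and -2.40 ± 0.39 in oldest-old Kl mice. The highest and the lowest mean, young sham and old Kl, lay closer together than the SD of the old GFP or old Kl group but farther apart than the SD of each other group, and young sham and young GFP mice differed by more than the SD of the young GFP group and less than that of the young sham group. Mice of the same group thus lay at different points of the axis, most in the old GFP and old Kl groups and least in the oldest-old GFP group. Whether the hour of collection differed between mice or groups was not tested, since the hour of collection is not given in the sources used here, which give a time of day for a hang test only.

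Other genes of the loop, a list of 14 of which 13 passed the filter, showed where the young sham group stood apart in addition to Per2 and Cry1. edgeR called 2 of the 13 between young GFP and young sham mice, beside 0.472% of all genes, both higher in young GFP: Bhlhe41, the gene of a repressor, with a log2 fold change of 0.91 (adjusted p 0.0417), and Csnk1d, the gene of a kinase that marks PER proteins for decay, with 0.26 (adjusted p 0.0385). DESeq2 called 4, beside 290 of all 17803 genes: these and Cry2 and Ciart. Cry2, the second cryptochrome gene, was 30.9, 26.4, 25.7 and 25.3 CPM in young sham and 38.1, 50.6, 40.96 and 53.6 in young GFP mice (log2 fold change 0.76, edgeR adjusted p 0.083). Ciart, the gene of a repressor of BMAL1 and its partner, was 4.02, 2.75, 3.41 and 2.58 CPM in young sham and 8.75, 10.7, 6.096 and 8.43 in young GFP mice (log2 fold change 1.41, edgeR adjusted p 0.091). All sham mice were below all young GFP mice in both genes, as they were in Per2, and these groups did not overlap for 9.76% of all genes. Both genes were named after their values were seen. For any difference among the 6 groups edgeR called 4 of the 13, beside 15.3% of all genes: Cry2, Bhlhe41, Ciart and Csnk1d. The comparisons with young GFP mice by age are not described for this list. In the comparisons of oldest-old with old GFP and of Kl with GFP mice and in the interaction edgeR called 0 of the 13, with 3 at an unadjusted p under 0.05 in oldest-old against old GFP mice, 0 in old Kl, 2 in oldest-old Kl and 1 for the interaction, and DESeq2 called 0 in each. Of all genes, in that order, 11.998%, 2.15%, 8.08% and 5.76% had an unadjusted edgeR p under 0.05. The median log2 fold change of the list was 0.11 in young GFP against young sham mice, against -0.03 over all genes.

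Output genes of the clock formed a list of 16 that all passed the filter. edgeR called 5 of the 16 in old against young GFP mice, beside 4.70% of all genes, 1 higher (Lonrf3, log2 fold change 0.95) and 4 lower: Coq10b (-1.12), Nfil3 (-0.96), Tsc22d3 (-0.65) and Usp2 (-0.61). In oldest-old against young GFP mice it called 7, beside 14.9% of all genes, 3 higher and 4 lower, the largest being Klf10 (1.58), Nfil3 (-1.33), Lonrf3 (1.15) and Coq10b (-1.0004). Coq10b was 70.9, 36.4, 24.2 and 20.9 CPM in young GFP mice, against means of 17.5 ± 1.70 in old GFP and 19.1 ± 4.16 in oldest-old GFP mice. Young GFP mouse 1, a library of high keratinocyte markers, thus weighed on both fold changes of Coq10b. Nfil3, which followed Arntl within groups, was 57.2, 47.3, 43.7 and 40.3 CPM in young GFP, 26.3, 29.3, 23.7 and 17.6 in old GFP and 15.2, 19.1, 20.99 and 19.8 in oldest-old GFP mice. Every young GFP mouse was above every old and oldest-old GFP mouse in Nfil3, while Arntl did not separate the same groups. In young sham mice Usp2 was 185 ± 21.2 CPM, against 312 ± 34.6 in young GFP and 205 ± 54.2 in old GFP mice. Tsc22d3 was 162.5 ± 15.3, 287 ± 32.1 and 183 ± 21.1 CPM in those groups. Coq10b, at 19.5 ± 3.13 CPM in young sham mice, was also nearer to old GFP mice. Nfil3 lay between at 35.3 ± 6.77, and Lonrf3 (0.461 ± 0.0953) was near young GFP mice (0.422 ± 0.1002). The part of age in these calls was not tested. Tef, the relative of Dbp that ran against Arntl, was 293 ± 13.1 CPM in young GFP, 273 ± 31.5 in old GFP and 290 ± 33.0 in oldest-old GFP mice (mean ± SD, n = 4) and was not called between them. Between young GFP and young sham mice edgeR called 1 of the 16, beside 0.472% of all genes, Tsc22d3 (log2 fold change 0.82), and DESeq2 called 3, beside 290 of all 17803 genes. For any difference among the 6 groups edgeR called 6 of the 16, beside 15.3% of all genes. In the comparisons of oldest-old with old GFP and of Kl with GFP mice, and in the interaction, edgeR and DESeq2 called 0, with 1, 0, 4 and 3 genes at an unadjusted edgeR p under 0.05 in oldest-old against old GFP, old Kl, oldest-old Kl and the interaction. Beside these, 11.998%, 2.15%, 8.08% and 5.76% of all genes were under that threshold. The list's median log2 fold change was -0.12 in old and -0.04 in oldest-old against young GFP mice, against 0.00 and 0.03 over all genes.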

How the data were processed

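RNA of gastrocnemius muscle was sequenced in 24 libraries, 1 per mouse, and the authors deposited counts of reads per gene, made with STAR on GRCm38/mm10 and not normalized. Column 2, which counts reads without regard to strand, was used, since the first strand column held 49.8% to 50.4% of stranded reads. Gene symbols were matched to Ensembl IDs without version. Counts were fitted with edgeR 4.0.16 (R 4.3.3; TMM scaling, filterByExpr, quasi-likelihood F test, 6 groups without intercept), with p adjusted by the Benjamini-Hochberg method over 17803 genes and calls at an adjusted p under 0.05. Levels are TMM-scaled CPM, and log2 CPM has a prior count of 2. Single genes were also compared by two-sided exact permutation of 4 mice against 4 (70 regroupings), and correlations by 100000 permutations, within groups for deviations from group means, with scipy 1.17.1. The relation with Arntl was ranked over genes with a mean of at least 1 CPM. The tests were first run on simulated counts.

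The 10 clock genes, the lists of other loop genes, output genes, muscle output genes, glucocorticoid targets and immediate early genes, and the markers of hepatocytes and keratinocytes were chosen with earlier results of these data known. Named genes are the 10 in every comparison; of a list, those called (all if 6 or fewer, otherwise the 4 with the largest absolute log2 fold change) and up to 3 others by abundance; and the 5 genes with the highest and the 5 with the lowest r with Arntl, Per1 and Dbp. Cry2, Ciart, Klf10 and the libraries pointed out singly were named after their values were seen.

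Alternatives were DESeq2 1.42.0 (Wald test, likelihood ratio test for any difference), DESeq2's size factors in edgeR, no filter on low counts, 20 libraries without young sham, the libraries of the compared groups alone, the sum of the strand columns, a block for mouse number, a prior count of 0.5 and the variance stabilizing scale (correlations), and leaving out each library in turn or old GFP mice 1 and 4 with young GFP mice 1 and 3. Leaving out the 7 libraries of high hepatocyte or keratinocyte markers, alone or with oldest-old GFP mouse 4, was chosen after seeing the data. Of the 10 genes, Npas2 had the fewest reads.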

Additional observations from a re-analysis of the deposited data

Results flagged for a closer look

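In groups of 4 mice, a mouse was looked at again when its distance to the nearest of the others was so large a share of the range of its group that a gap test passed at the level of 5%. This was the case in 7 of 66 groups tested, and chance does so in about 1 in 20 groups. In log2 CPM, Clock was high in young GFP mouse 1 (5.60) and Per2 was low in the same mouse (3.36), whose clock balance, -2.13, was the highest of its group. Npas2 was low in oldest-old GFP mouse 4 (0.73), and Per1 was low in old Kl mouse 3 (5.71). Cry1 was high in oldest-old Kl mouse 1 (3.92), and the clock balance was low in oldest-old Kl mouse 4 (-2.98). Young GFP mouse 1 is among the libraries with keratinocyte markers (131 CPM), whose part in these values was not tested.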

How the results depend on the processing

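In 6 of the 8 tests 0 of the 10 clock genes were called by edgeR under every alternative run with it, leaving out each library included, or by DESeq2, which was run on all 24 libraries. The exceptions were young GFP against young sham mice, where 1 gene (Per2) was called when the fit held the libraries of those groups alone, and the test for any difference among the 6 groups. In the latter, DESeq2 called 1 (Per1), and edgeR called 1 (Per2) without the 7 libraries of high hepatocyte or keratinocyte markers and 1 (Per2) without those 7 and oldest-old GFP mouse 4, both chosen after seeing the data. Leaving out each library in turn gave 0 to 1: Per1 without old Kl mouse 3, oldest-old GFP mouse 1 or oldest-old GFP mouse 4, and Per2 without old Kl mouse 4. The cause was not tested. Of the 45 pairs, 30 passed as reported, 12 without the 7 libraries, 16 without those and oldest-old GFP mouse 4, and 20 to 30 when each library was left out in turn, the fewest without old GFP mouse 1. Of 70 log2 fold changes, 2 changed sign with the size factors of DESeq2 in edgeR, 2 with DESeq2, 1 without the filter, 2 with the compared groups alone, 2 with the strand columns and 2 with a block for mouse number, none of them called. Signs changed in 7 without old GFP mice 1 and 4 and young GFP mice 1 and 3, in 7 and 12 under the alternatives chosen after seeing the data, and in 1 to 8 when each library was left out in turn. Under the 2 chosen after seeing the data, 12 and 13 of the 70 moved by more than the SD of the gene within groups, by up to 0.97 and 0.98 log2 units. With the block, edgeR called 0 of the 10 in every test. Mice of the same number in different groups were about as alike as others (median r of 0.0212 against -0.0184, a difference that was not tested). The numbers were therefore not taken to pair mice. The unadjusted p of Cry1 in old against young GFP mice and of Per1 in oldest-old Kl against oldest-old GFP mice lay close to 0.05 and passed it in only some alternatives.

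The limits are these. With 4 mice a group and 1 muscle per mouse taken at an hour that is not given, a rhythm cannot be fitted, and a group difference in Npas2, Per2 or Dbp had to be large to pass. The handling of the young sham group is not given, so vector and handling cannot be told apart there. Comparisons that share young GFP, old GFP or oldest-old GFP libraries are not independent. Bulk RNA mixes cell types, and 7 libraries passed a summed 50 CPM of hepatocyte or keratinocyte markers, of which others held less.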

Other observations

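Genes of muscle metabolism that the muscle clock is known to drive, were looked at as a list of 10. edgeR called 4 of the 10 in old against young GFP mice (beside 4.70% of all genes), Myod1 higher (log2 fold change 1.36) and Ppargc1a (-1.30), Ucp3 (-0.97) and Ppara (-0.91) lower, and 5 in oldest-old against young GFP mice (beside 14.9%), where Fbxo32 was higher as well (0.82) beside Myod1 (1.68), Ppargc1a (-1.44), Ppara (-1.23) and Ucp3 (-0.998). Fbxo32 was 470, 410, 538 and 1167 CPM in oldest-old GFP and 445, 316, 359 and 342 CPM in young GFP mice, so these groups overlapped. Oldest-old GFP mouse 4, which stood apart from its group over all genes, weighed on that fold change. Between young GFP and young sham mice edgeR called 3 (beside 0.472%), all higher in young GFP mice: Ucp3 (1.39), Ppargc1a (1.20) and Hk2 (0.57). Myod1 was 31.4 ± 4.08 CPM in young sham, 11.4 ± 3.505 in young GFP and 29.3 ± 10.4 in old GFP mice. Ucp3 was 116 ± 26.2, 304 ± 69.6 and 156 ± 43.5 CPM in those groups. Young sham mice overlapped both other groups in Ppargc1a, and old GFP mice only in Ppara. The part of age in the calls of old against young GFP mice was not tested. None of the 10 was called in the comparisons of oldest-old with old GFP or of old Kl or oldest-old Kl with GFP mice or in the interaction, by edgeR or DESeq2, with 3, 0, 0 and 0 genes at an unadjusted edgeR p under 0.05. Beside these, 11.998%, 2.15%, 8.08% and 5.76% of all genes were under that threshold.

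Signals from outside the clock also act on Per1, and their targets were looked at as lists, for which the shares of all genes called are 4.70% in old and 14.9% in oldest-old against young GFP mice and 0.472% in young GFP against young sham mice. At an unadjusted edgeR p under 0.05 the shares are 19.1% in old against young GFP and 11.998% in oldest-old against old GFP mice. They are 2.15% in old Kl, 8.08% in oldest-old Kl and 5.76% for the interaction. Of all genes DESeq2 called 120 in oldest-old against old GFP, 25 in oldest-old Kl and 290 in young GFP against young sham mice. Of 10 genes that answer to glucocorticoids, edgeR called 2 in old against young GFP mice, both lower, Mt2 (log2 fold change -2.10, mean 0.767 CPM) and the receptor gene Nr3c1 (-0.40), and 2 in oldest-old against young GFP mice, Cdkn1a higher (1.12) and Nr3c1 lower (-0.74). In young GFP against young sham mice Mt2 (2.73) and Nr3c1 (0.51) were called, both higher. In the comparisons of oldest-old with old GFP, of old Kl and of oldest-old Kl with GFP mice and in the interaction edgeR called 0 of the 10, with 2, 0, 1 and 1 at an unadjusted p under 0.05, and DESeq2 called 1 in oldest-old against old GFP mice and 0 in the others. Of 9 immediate early genes, edgeR called 2 in old against young GFP mice, Fos higher (2.42) and Nr4a3 lower (-1.54), and 6 in oldest-old against young GFP mice: Fos (4.28), Fosb (3.43), Egr1 (3.26), Junb (2.55) and Ier2 (2.12) higher and Nr4a3 (-3.05) lower. In young GFP against young sham mice it called 1, Nr4a3 (2.69). In the comparisons of oldest-old with old GFP, of old Kl and of oldest-old Kl with GFP mice and in the interaction it called 0 of the 9, with 5, 0, 3 and 2 at an unadjusted p under 0.05, and DESeq2 called 1 in oldest-old Kl mice and 0 in the others. Per1 was not called in any of these comparisons, and its relation to these lists was not tested. Of the 10 hepatocyte markers edgeR called 9 in old against young GFP mice, all higher, 10 for any difference and 0 elsewhere. At an unadjusted p under 0.05 it had 10 of them in oldest-old against old GFP, 4 in old Kl and 5 in young GFP against young sham mice, where DESeq2 called 9, 0 and 2. Of the 10 keratinocyte markers edgeR called 4 in oldest-old against young GFP mice, all lower, 2 for any difference and 0 elsewhere. It had 10 of these at an unadjusted p under 0.05 in old against young GFP mice, where DESeq2 called 4, and in the comparisons not named DESeq2 called 0 of either list and edgeR had 0 at the unadjusted threshold. Markers of other cell types were also called in oldest-old against young GFP mice: by edgeR and DESeq2 6 of 6 erythroid markers (median log2 fold change 2.48) and 4 of 5 markers of slow muscle fibers (1.45), all higher. The erythroid markers summed to 605, 116, 90.2 and 665 CPM in oldest-old GFP mice 1 to 4 and to 63.1 to 101 in young GFP mice. Oldest-old GFP mice 1 and 4 thus weighed on the erythroid fold changes, and mouse 3 lay within the young GFP range. In the other comparisons of 2 groups edgeR called 0 of either list, and at an unadjusted p under 0.05 it had 6 erythroid markers in oldest-old against old GFP mice, 4 in oldest-old Kl against oldest-old GFP mice and 4 slow fiber markers in old against young GFP mice, where DESeq2 called 0, 0 and 4. In oldest-old against young GFP mice edgeR also called 3 of 8 fast fiber markers, 1 higher and 2 lower, and 1 of 5 endothelial markers, higher. Between young GFP and young sham mice edgeR called 0 endothelial and 0 leukocyte markers. At an unadjusted p under 0.05 it had 4 of 5 endothelial (median log2 fold change -0.30) and 3 of 7 leukocyte markers (-0.85) there, beside 13.4% of all genes. Oldest-old GFP mouse 4 stood apart from its group over all genes, with a chi-square per gene of 137 to 154 against the other 3 mice, which had 14.8 to 41.04 among themselves.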
